A study of Arabidopsis thaliana with 12 samples.

Results

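A set of 10 genes of nitrate uptake and assimilation was followed in Arabidopsis leaves, out of the 36061 named genes in the count table. They were taken by name for their roles, with earlier results of these data known. *NRT1.1*, *NRT1.5* and *NRT1.8* encode nitrate transporters, *NIA1* and *NIA2* nitrate reductases, *NIR1* nitrite reductase, *UPM1* an enzyme of siroheme synthesis and *G6PD3* a plastid glucose-6-phosphate dehydrogenase. *NLP7* encodes the transcription factor of the primary nitrate response, and *BT1* a BTB and TAZ domain protein of nitrogen regulation. All 10 passed the filter on low counts and were tested.

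Positions are those of TAIR10.1. On chromosome 1 lie *NIA1* (AT1G77760, chr1:29235721-29239484, - strand), *NIA2* (AT1G37130, chr1:14158452-14161938, + strand), *NRT1.1* (AT1G12110, chr1:4105223-4109601, + strand), *NRT1.5* (AT1G32450, chr1:11715147-11719988, - strand) and *G6PD3* (AT1G24280, chr1:8609338-8612580, + strand). *NIR1* (AT2G15620, chr2:6810395-6812941, + strand) is on chromosome 2. Chromosome 4 carries *NRT1.8* (AT4G21680, chr4:11517353-11519805, - strand) and *NLP7* (AT4G24020, chr4:12479528-12484049, + strand), and chromosome 5 carries *UPM1* (AT5G40850, chr5:16365900-16369316, + strand) and *BT1* (AT5G63160, chr5:25333172-25335570, - strand).

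The study compared wild type (WT) with plants carrying the *MtPHD6* transgene, which encodes a PHD finger protein of *Medicago truncatula*, each watered or under drought. This gave the groups WT-control, WT-drought, PHD6-control and PHD6-drought, with 3 biological replicates each and 12 leaf libraries in all. Drought began at 12 days of age and lasted 7 d by the study's methods, while the labels give 10 days for every library, watered ones included. The transgenic plants were homozygous lines made with a pCAMBIA1301S vector, and the line behind each library is not known. Leaves were pooled from many plants, so a library is not a single plant.

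Nitrate enters the cell through transporters and is reduced in the cytosol to nitrite by nitrate reductase. Nitrite then passes into the plastid, where nitrite reductase, with its siroheme cofactor, makes ammonium for glutamine synthesis. Nitrate itself induces many of these genes through NLP transcription factors, and nitrate reductase is also known to follow light, sugar and the clock.

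A nitrate-responsive element is a short sequence known from nitrite reductase genes. It is shown here because *NIR1* and the nitrate reductase genes differed in their response, and a link of the element to that difference was not tested. Its core was searched on both strands as GAC, any base, CTT, any 10 bases and AAG. In the 1000 bases before the start codon it was found in 1 of the 10 genes, *NIR1*, and in 0.55% of 27443 protein-coding genes. In the 1000 bases after the gene end it was found in 0 of the 10 genes and in 0.685% of 27442. The *NIR1* site (chr2:6810456-6810481, + strand, TAIR10.1) lies inside the transcribed leader, and its core begins 93 bases before the start codon. Capitals mark the fixed letters of the core.
NIR1 site: cttGACcCTTtacattgctcAAGagc

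The 250 bases before the annotated gene start are shown for both nitrate reductase genes, which rose with drought in WT and with the transgene in watered plants, and for *NIR1*, which was called in neither comparison. They are read from RefSeq's TAIR10.1 on the coding strand. Capitals mark ACGTG, the core of the ABA-responsive element, searched on both strands.
NIA1 (chr1:29239485-29239734, - strand): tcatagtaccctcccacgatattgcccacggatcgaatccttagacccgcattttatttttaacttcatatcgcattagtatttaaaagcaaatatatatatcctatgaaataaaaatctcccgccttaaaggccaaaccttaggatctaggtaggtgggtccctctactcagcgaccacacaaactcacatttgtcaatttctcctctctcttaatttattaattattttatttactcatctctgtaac
NIA2 (chr1:14158202-14158451, + strand): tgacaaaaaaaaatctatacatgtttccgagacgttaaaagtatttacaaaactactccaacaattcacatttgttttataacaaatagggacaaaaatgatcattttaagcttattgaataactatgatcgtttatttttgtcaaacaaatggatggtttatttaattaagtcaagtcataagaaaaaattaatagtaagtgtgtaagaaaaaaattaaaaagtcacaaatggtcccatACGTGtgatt
NIR1 (chr2:6810145-6810394, + strand): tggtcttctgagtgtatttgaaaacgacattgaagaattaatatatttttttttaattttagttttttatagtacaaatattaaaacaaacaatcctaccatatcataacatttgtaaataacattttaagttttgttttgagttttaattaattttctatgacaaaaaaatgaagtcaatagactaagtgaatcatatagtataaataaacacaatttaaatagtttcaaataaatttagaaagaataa
ACGTG was present 10 bases before the *NIA2* start and was not found in the windows of *NIA1* and *NIR1*. Among windows of this length 22.9% of protein-coding genes hold it, and 2 of the 10 genes do, *NIA2* and *NLP7*. The DRE core CCGAC was found for 1 of the 10 genes, *NLP7*, against 3285 of the 27443 windows, and the evening element AAAATATCT for 0 of 10, against 2.36%. These results depend on the window. In the 1000 bases before the start codon ACGTG was found for 5 of the 10 genes, against 54.2%, and CCGAC for 5, against 39.4%. There *NIR1* holds both, with ACGTG 42 bases before its start codon, and *NIA1* holds CCGAC. AAAATATCT was found there for 0 of 10, against 7.26%. In the 1000 bases after the gene end AAAATATCT was found for 2 of 10, *NLP7* and *BT1*, against 5.24%. ACGTG and CCGAC were each found for 5 in that window, against 49.9% and 39.1%.

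Counts over named genes were 17839925 to 24717357 per library. Expression is given as CPM, read counts relative to the library total after TMM normalization, with fold changes on the log2 scale from edgeR's quasi-likelihood test, and genes were called at an adjusted p under 0.05 over 19681 genes. Leaf mesophyll markers summed to 16380 to 29900 CPM and 6 root markers to 0.0538 to 0.459 CPM, with *EXPA7* at 0 in all 12 libraries. The mesophyll and root markers thus fit the leaf label. Flower markers, 4 genes that all passed the filter on low counts, summed to 1.28 to 13.95 CPM, and their source was not tested. Some libraries stood apart. Across genes, the log2 CPM of PHD6-control replicate 3 correlated best with WT-drought replicate 1 (r = 0.987, against at most 0.982 within its group), and that of WT-control replicate 3 with PHD6-control replicate 2 (0.981 against 0.980). WT-control replicate 2 was the lowest library of its group for 7 of the 10 genes and for the mesophyll markers (19100 CPM against 27170 and 29900).

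The nitrate reductase genes and *BT1* carried most of the change. Since genes and lists were chosen with earlier results of these data known, shares of all genes beside their counts are descriptions, not tests. In PHD6-control vs. WT-control *NIA1*, *NIA2* and *BT1* rose and no member fell, so 3 of 10 were higher where 4.26% of all genes were, and 0 of 10 lower where 0.722% were. Without PHD6-control replicate 3 only *BT1* of them stayed called. In WT-drought vs. WT-control the same 3 genes rose and none fell, against 12.2% of all genes higher and 7.18% lower. In PHD6-drought vs. WT-drought *G6PD3* was higher and *BT1* lower, against 2.65% and 3.89% of all genes. In PHD6-drought vs. PHD6-control *NIA1* rose while *NIR1* and *BT1* fell, against 9.49% higher and 12.7% lower. The 1 higher is near its share. The drought response itself differed between the genotypes for *NIA2* and *BT1*, both lower in *MtPHD6* plants, where 5.6% of all genes were lower and 1.38% higher by this interaction test. The counts of 0 from edgeR were also 0 with DESeq2, and at an unadjusted p under 0.05 they were 0 for members lower in both comparisons with WT-control and 1 for members higher by the interaction.

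Over both directions, 4.98%, 6.53%, 19.4% and 22.2% of all genes were called for the transgene in watered plants, the transgene under drought, drought in WT and drought in *MtPHD6* plants, and 6.98% by the interaction. Groups without overlap were found for 4, 3, 6 and 3 of the 10 genes in these comparisons, where 24.4%, 28.5%, 37.6% and 41.2% of all genes had them. In all, 5 of 10 genes were called in at least 1 comparison, against 33.0% of all genes. A change of more than 2-fold at an unadjusted p under 0.05, the rule in the study's methods, was met by 3.48%, 1.71%, 6.24%, 5.6% and 4.63% of all genes in the same order. Both comparisons with WT-control share its libraries, so their agreement is not independent. With upper-quartile scaling the share of called genes that were higher moved from 63.0% to 46.9% in WT-drought vs. WT-control and from 19.7% to 32.8% in the interaction, and no call on a member changed.

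**Figure D1:**
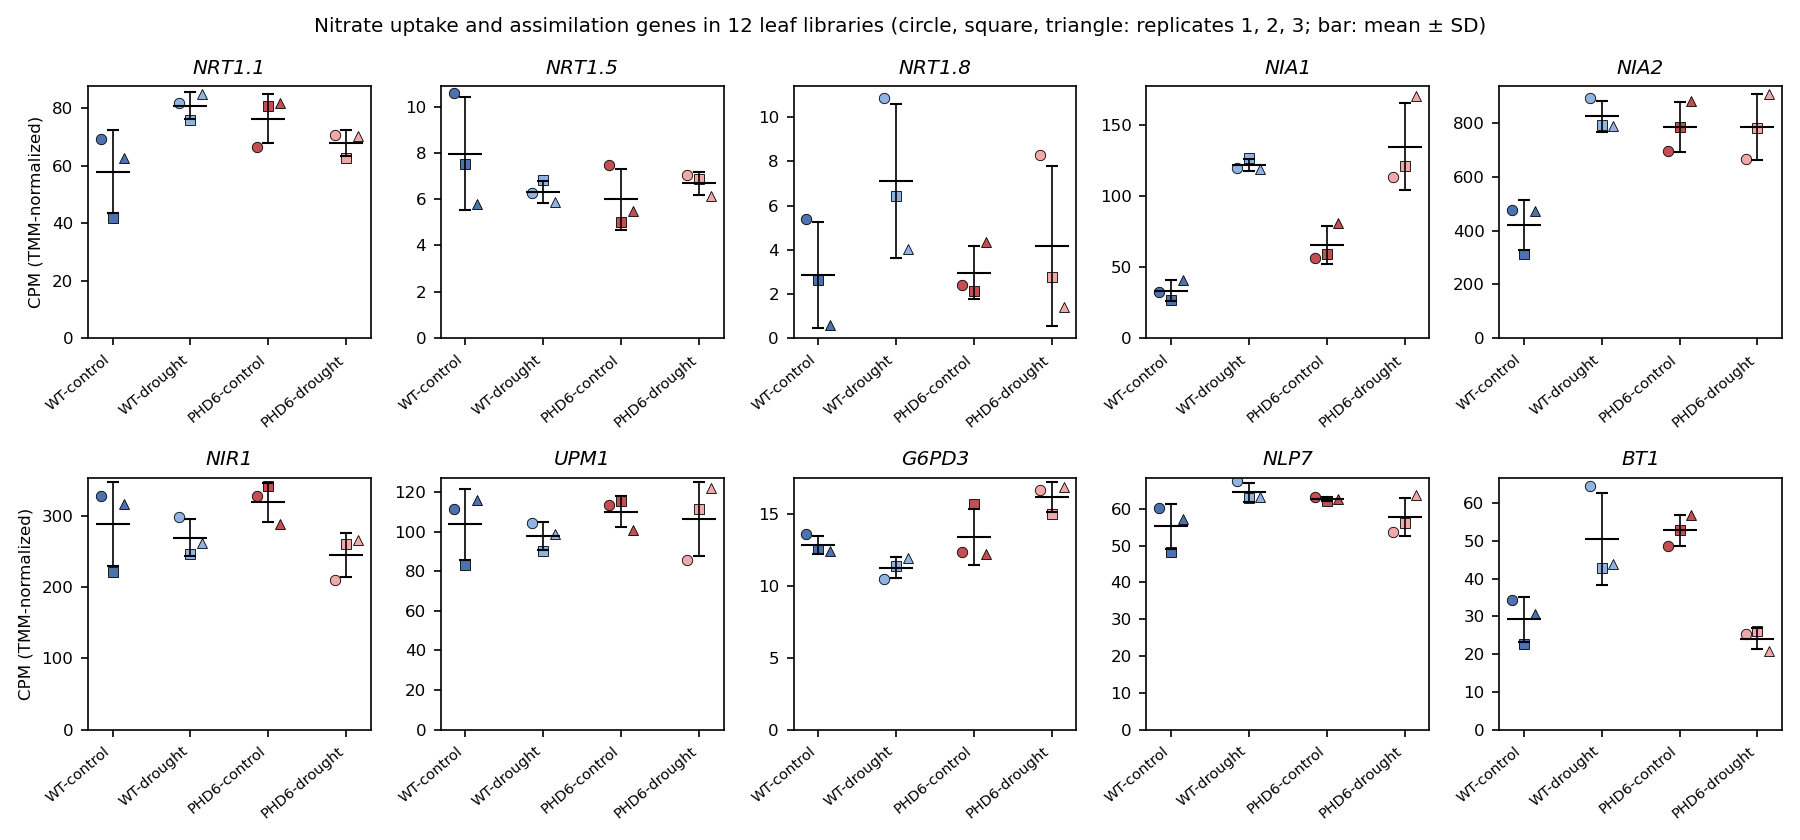
CPM of the 10 genes in each of the 12 libraries, with circles, squares and triangles for replicates 1, 2 and 3 and bars for the mean ± SD of 3 libraries. The *NIA2* libraries of WT-control, 313.4 to 475.3 CPM, all lie below the other 9, and *BT1* is high in WT-drought and PHD6-control only.

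The transporters stand first in the pathway, and none was called in any of the 4 comparisons, although some alternatives called *NRT1.1* or *NRT1.8*. *NRT1.1*, the dual-affinity transporter and nitrate sensor, was measured at 69.4, 41.7 and 62.6 CPM in WT-control, 81.7, 75.9 and 85.0 in WT-drought, 66.5, 80.9 and 81.7 in PHD6-control, and 70.7, 62.7 and 70.3 in PHD6-drought. All 3 WT-drought libraries were above all 3 of WT-control, and above all 3 of PHD6-drought. The drought difference in WT was 0.48 (SE 0.16) with an adjusted p of 0.0735, and 0.51 with an adjusted p of 0.00917 when replicate numbers were fitted as a block. DESeq2 (0.0308), no filter on low counts (0.0489) and the fit of all 12 libraries (0.0358) also called it, as adjusted p. It was 0.64 (adjusted p = 0.0241) without WT-control replicate 1 and 0.29 (adjusted p = 0.0283) without replicate 2. In PHD6-drought vs. WT-drought the difference was -0.24 (SE 0.08, adjusted p = 0.095), and -0.28 (adjusted p = 0.0452) without PHD6-drought replicate 1. The interaction was -0.65 (SE 0.21, adjusted p = 0.0961), and -0.80 (adjusted p = 0.0307) without WT-control replicate 1.

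*NRT1.8*, which removes nitrate from the xylem, was the most variable of the 10 genes. Its values were 5.38, 2.63 and 0.574 CPM in WT-control, 10.9, 6.42 and 4.04 in WT-drought, 2.42, 2.12 and 4.34 in PHD6-control, and 8.29, 2.79 and 1.42 in PHD6-drought, from 10 to 223 counts per library. The groups overlapped in every comparison, and replicate 1 was the highest library in 3 of the 4 groups. WT-drought vs. WT-control gave 1.31 (SE 0.60, adjusted p = 0.17), 1.46 with an adjusted p of 0.00342 under the replicate block and 2.09 (adjusted p = 0.0365) without WT-control replicate 1. Its other 3 differences did not pass, among them -0.74 (95% interval -1.96 to 0.48) in PHD6-drought vs. WT-drought, which became -1.72 (adjusted p = 0.0265) without PHD6-drought replicate 1. 

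*NRT1.5*, known from roots as the loader of nitrate into the xylem, lay between 5.01 and 10.6 CPM in all 12 libraries, and its groups overlapped in all 4 comparisons. Its differences ran from -0.42 (adjusted p = 0.416) in PHD6-control vs. WT-control to 0.16 (adjusted p = 0.545) in PHD6-drought vs. PHD6-control. Both genes share bases of their exons with a neighbour on the opposite strand, 16 for *NRT1.5* and 44 for *NRT1.8*, and no source says if reads were counted by strand.

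**Figure D2:**
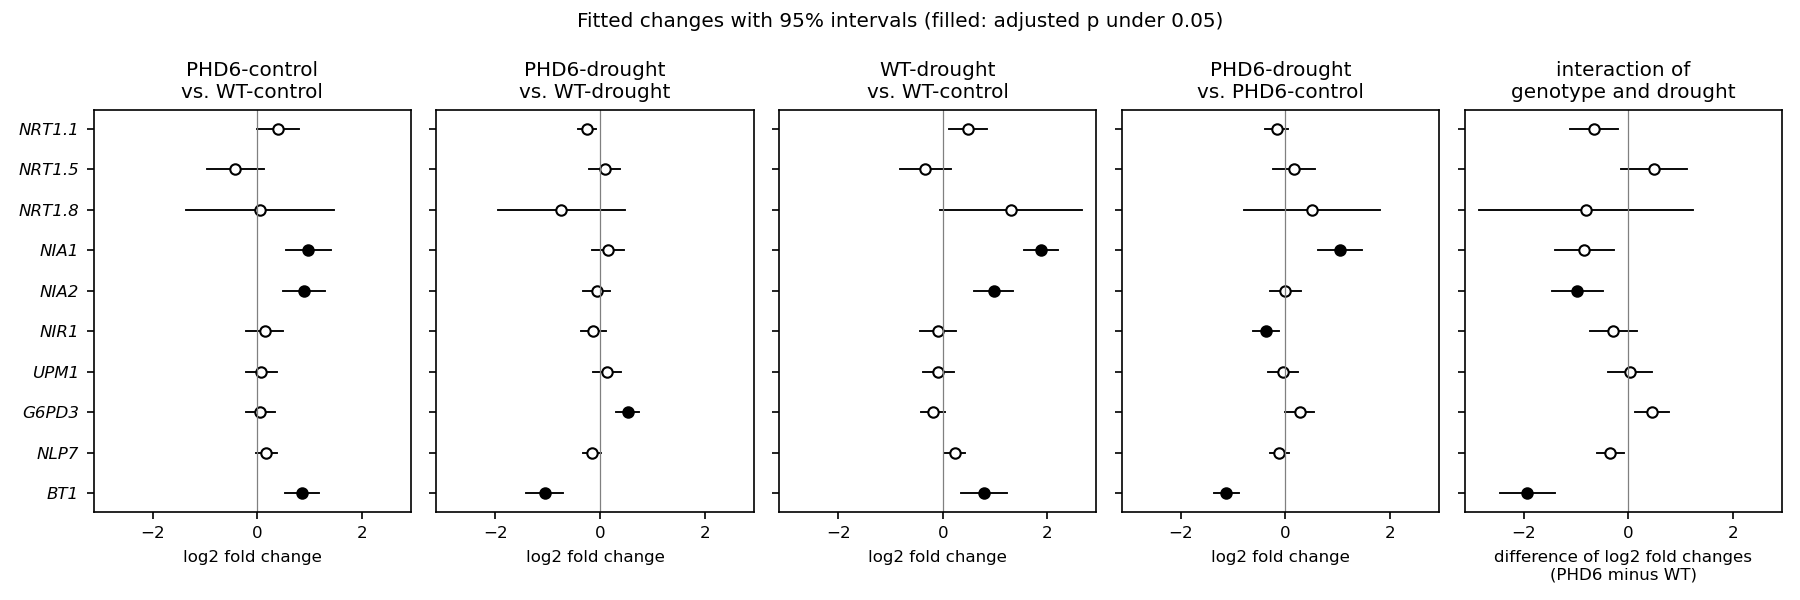
Fitted log2 fold changes of the 10 genes in the 4 comparisons, and the difference of drought responses between genotypes in the right-hand panel. Points are estimates, lines 95% intervals, and filled points have an adjusted p under 0.05, as for *NIA1* in 3 comparisons and *BT1* in all panels.

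Nitrate reductase transcripts rose with drought in WT and with the transgene in watered plants. *NIA2*, which encodes the main leaf nitrate reductase, had 475.3, 313.4 and 471.2 CPM in WT-control, 892.6, 791.4 and 789.8 in WT-drought, 694.5, 784.1 and 881.2 in PHD6-control, and 665.3, 782.8 and 908.2 in PHD6-drought. Every WT-control library was below the 9 others, and the other 3 groups overlapped. The transgene raised *NIA2* by 0.90 (SE 0.17, adjusted p = 0.0232) in watered plants, and drought raised it by 0.97 (SE 0.16, adjusted p = 0.00371) in WT. In *MtPHD6* plants the drought difference was 0.00 with a 95% interval from -0.300 to 0.295. The interaction was -0.98 (SE 0.23, adjusted p = 0.0183). The level in PHD6-drought vs. WT-drought differed by -0.06, with an interval from -0.316 to 0.193.

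*NIA1*, the other nitrate reductase gene, stood at 32.4, 26.4 and 41.2 CPM in WT-control, 119.7, 127.0 and 119.4 in WT-drought, 56.4, 59.5 and 81.0 in PHD6-control, and 113.2, 121.3 and 170.3 in PHD6-drought. WT-control was lowest, PHD6-control next without overlap, and the 2 drought groups were highest and overlapped each other. Drought raised it by 1.88 (SE 0.14, adjusted p = 9.3e-05) in WT and by 1.04 (SE 0.18, adjusted p = 0.00673) in *MtPHD6* plants. The transgene raised it by 0.98 (SE 0.19, adjusted p = 0.0222) in watered plants. The interaction of -0.84 (SE 0.26) had an adjusted p of 0.0785 with edgeR, with 0.0162 to 0.179 over the alternatives and 0.0266 with DESeq2.

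The transgene calls on both genes in watered plants were near the threshold. Leaving out PHD6-control replicate 3 gave 0.79 (adjusted p = 0.0546) for *NIA1* and 0.81 (adjusted p = 0.0853) for *NIA2*. *NIA1* also lost its call without WT-control replicate 1 (0.0638) or 2 (0.0551), and *NIA2* without WT-control replicate 3 (0.0605) or PHD6-control replicate 1 (0.0546) or 2 (0.0653), as adjusted p. The drought calls on *NIA1* in both genotypes and on *NIA2* in WT held without each library. The interaction of *NIA2* lost its call without WT-drought replicate 1 (adjusted p = 0.0545).

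*NIR1*, which encodes nitrite reductase, was called in 1 of the 4 comparisons, drought in *MtPHD6* plants. It was measured at 327.2, 220.4 and 316.0 CPM in WT-control, 298.1, 246.8 and 262.2 in WT-drought, 327.0, 341.0 and 288.6 in PHD6-control, and 209.5, 259.9 and 265.7 in PHD6-drought. PHD6-drought was below PHD6-control in all 3 libraries, and the groups of the other comparisons overlapped. Drought in *MtPHD6* plants changed it by -0.38 (SE 0.11, adjusted p = 0.038), a call lost when any of PHD6-control replicates 1 and 2 and PHD6-drought replicates 1 to 3 was left out (adjusted p 0.0508 to 0.127). In WT the drought difference was -0.10, with an interval from -0.443 to 0.249. In PHD6-control vs. WT-control it was 0.14, with an interval from -0.205 to 0.491, and -0.02 without WT-control replicate 2. Markers also moved with drought in *MtPHD6* plants, where 12.7% of all genes were lower. There 2 of 4 mesophyll markers (median -0.38) and 3 of 7 vascular markers (median -0.43) were lower, and their part in the *NIR1* difference was not tested.

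*UPM1*, whose product makes the precursor of siroheme, ranged from 83.0 to 122.1 CPM over the 12 libraries and was called in no comparison. Its differences ran from -0.08 to 0.13, with intervals within -0.371 and 0.403. An opposite-strand gene overlaps 203 of its exonic bases but has 0 counts in all libraries.

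**Figure D3:**
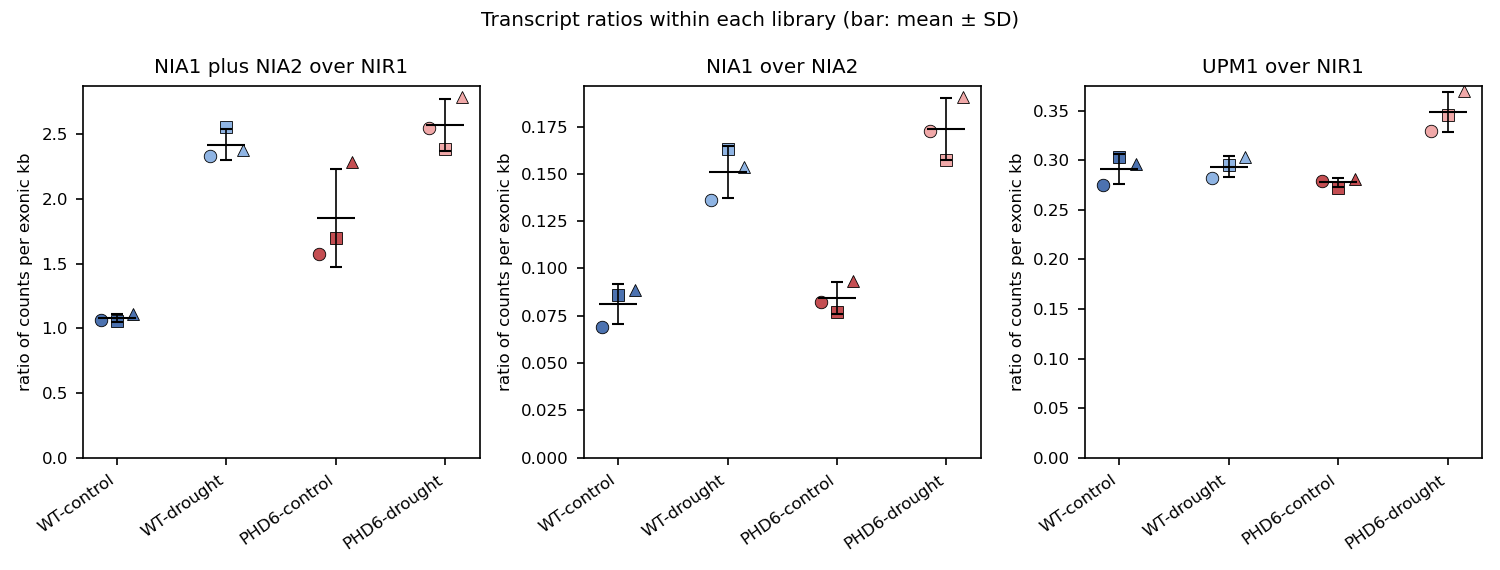
Ratios of counts per exonic kb within each library, with bars for the mean ± SD of 3 libraries. Nitrate reductase over nitrite reductase is 1.06 to 1.111 in WT-control and at least 1.57 in all other libraries, while *NIA1* over *NIA2* separates watered from drought libraries in both genotypes.

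The balance of the nitrate reductases to nitrite reductase was computed within each library, per kb of exon, after the levels had been seen. The summed *NIA1* and *NIA2* over *NIR1* was 1.06, 1.06 and 1.111 in WT-control, 2.33, 2.55 and 2.38 in WT-drought, 1.57, 1.695 and 2.29 in PHD6-control, and 2.55, 2.39 and 2.79 in PHD6-drought. WT-control stood below all other libraries, and PHD6-control below PHD6-drought, with PHD6-control replicate 3 near the drought libraries. Geometric means of the ratio rose 2.25-fold with drought in WT, 1.41-fold with drought in *MtPHD6* plants and 1.697-fold with the transgene in watered plants. An exact two-sided permutation test gave p = 0.1 for each, the smallest that 3 against 3 libraries allow, and p = 0.3 for PHD6-drought vs. WT-drought, whose groups overlapped.

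Per kb, *NIA1* reached 0.0692 to 0.0888 of the *NIA2* level in WT-control and 0.0771 to 0.0934 in PHD6-control. Under drought it was 0.136 to 0.163 in WT and 0.158 to 0.190 in *MtPHD6* plants. The share thus moved with drought, 1.86-fold in WT and 2.06-fold in *MtPHD6* plants (exact permutation p = 0.1 for each), and overlapped between genotypes under both waterings. *UPM1* over *NIR1* was 0.330 to 0.370 in PHD6-drought and 0.272 to 0.303 in the other 9 libraries.

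*G6PD3*, which supplies NADPH in plastids, was the one member called higher with the transgene under drought. It had 13.6, 12.5 and 12.4 CPM in WT-control, 10.5, 11.4 and 11.95 in WT-drought, 12.4, 15.7 and 12.2 in PHD6-control, and 16.6, 14.98 and 16.9 in PHD6-drought. PHD6-drought lay above every WT library, and overlapped PHD6-control at its replicate 2. PHD6-drought vs. WT-drought gave 0.53 (SE 0.10, adjusted p = 0.0183), with an adjusted p of 0.0891 without WT-drought replicate 1 and 0.0682 without replicate 2. Its drought differences, -0.19 in WT (adjusted p = 0.238) and 0.27 in *MtPHD6* plants (adjusted p = 0.143), did not pass. Its exons share a run of up to 52 bases with *G6PD2*, a close copy, and that run is shorter than the study's reads. Genes on the opposite strand cover 120 of its exonic bases, and 1 of them was detected in these libraries, while *G6PD3* itself had 214 to 389 counts in each. The strand setting of the counting is not given in the sources used here.

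*NLP7*, the nitrate-responsive regulator, varied least of the 10 genes. It ran from 48.3 to 60.2 CPM in WT-control, 63.0 to 67.6 in WT-drought, 62.1 to 63.2 in PHD6-control and 53.9 to 63.7 in PHD6-drought. WT-control lay below WT-drought and PHD6-control without overlap. The differences were 0.23 (adjusted p = 0.125) with drought in WT and 0.18 (adjusted p = 0.345) with the transgene in watered plants, and none of its 4 comparisons passed.

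*BT1*, whose product is known to limit nitrate uptake genes, was called in all 4 comparisons and reversed its drought response between genotypes. Its CPM were 34.4, 22.6 and 30.6 in WT-control, 64.6, 42.9 and 44.0 in WT-drought, 48.7, 53.0 and 56.9 in PHD6-control, and 25.2, 26.0 and 20.9 in PHD6-drought. PHD6-control and WT-drought were high and overlapped, and PHD6-drought and WT-control were low and overlapped. Drought raised *BT1* by 0.79 (SE 0.19, adjusted p = 0.0201) in WT and changed it by -1.13 (SE 0.10, adjusted p = 4.8e-04) in *MtPHD6* plants. The interaction was -1.93 (SE 0.24, adjusted p = 2.8e-04). The transgene changed it by 0.85 (SE 0.14, adjusted p = 0.012) in watered plants and by -1.06 (SE 0.16, adjusted p = 0.0098) under drought.

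Without WT-control replicate 3 or WT-drought replicate 1, the *BT1* drought call in WT was lost (adjusted p = 0.0544 and 0.0612). The other 3 calls and the interaction held without each library. Its pattern of calls, higher with the transgene in watered plants and with drought in WT and lower in both other comparisons, was shared by 158 genes, 0.803% of those tested, *BT1* among them.

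**Figure D4:**
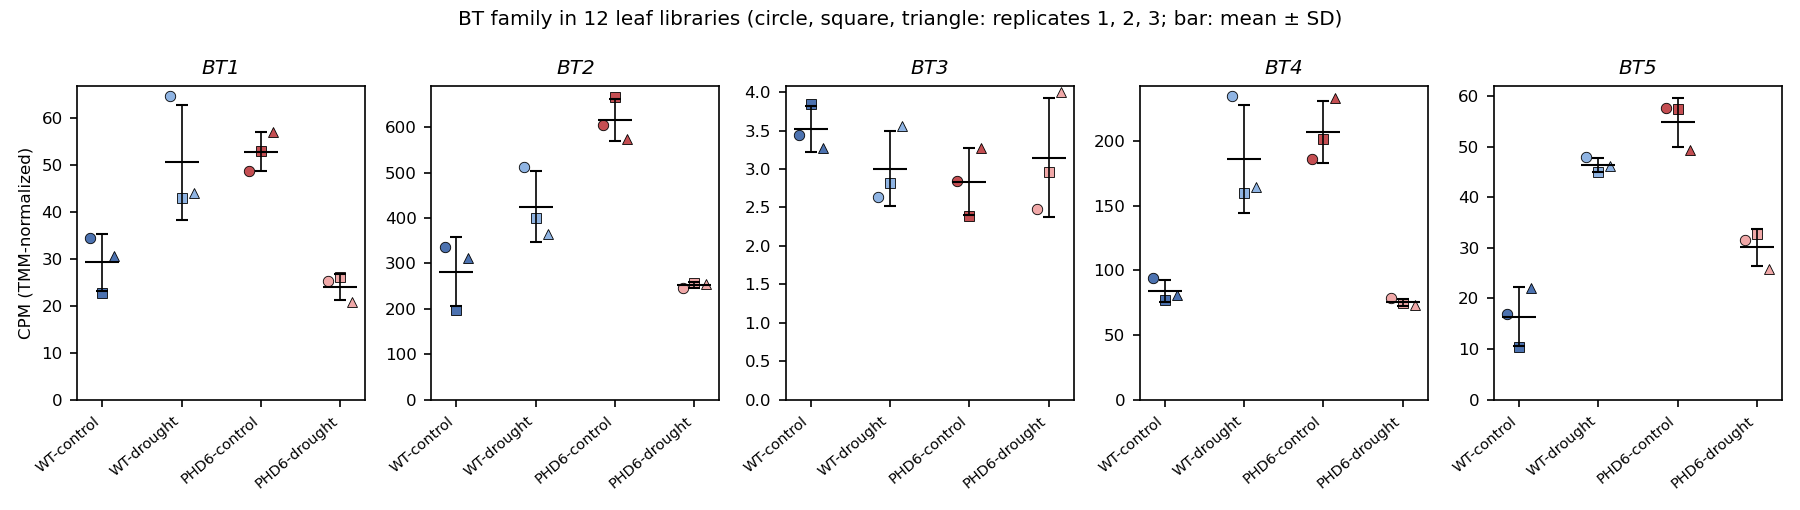
CPM of the 5 *BT* genes in each library, with circles, squares and triangles for replicates 1, 2 and 3 and bars for the mean ± SD of 3 libraries. *BT1*, *BT2*, *BT4* and *BT5* are higher in PHD6-control than in PHD6-drought in every library, and *BT3* reaches at most 4.00 CPM.

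The other *BT* genes, chosen for display after their values had been seen, were set beside it. *BT2*, a homolog with partly shared function, had 336.9, 196.2 and 312.7 CPM in WT-control, 512.2, 399.1 and 364.0 in WT-drought, 606.1, 667.4 and 575.2 in PHD6-control, and 245.2, 257.3 and 254.8 in PHD6-drought. PHD6-control was above every other library and the PHD6-drought libraries were within the range of WT-control. *BT2* was higher with the transgene in watered plants (1.124, adjusted p = 0.0122, and 0.0509 without PHD6-control replicate 1) and lower with it under drought (-0.74, adjusted p = 0.0111). Drought changed it by -1.29 (adjusted p = 8.0e-05) in *MtPHD6* plants, and its difference in WT was 0.59 (adjusted p = 0.0792, and 0.0109 under the replicate block). *BT4* and *BT5* were called in all 4 comparisons with the signs of *BT1*, and their interactions were -2.61 and -2.37 (adjusted p = 1.8e-05 and 1.3e-04). The *BT5* call under drought was lost without WT-drought replicate 1. *BT3*, at 2.39 to 4.00 CPM, was called in none. The longest identical run of exonic bases was 20 between *BT1* and *BT2* and 12 between *BT1* and *BT4*.

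Of 28 tested genes of nitrate signalling, the *BT* genes other than *BT1* among them, edgeR called 7 higher and 0 lower in PHD6-control vs. WT-control, and 0 higher and 7 lower in PHD6-drought vs. WT-drought. At an unadjusted p under 0.05 these zeros became 1 and 2, and with DESeq2 0 and 1. The 7 lower under drought numbered 3 without WT-drought replicate 1, and 4 without WT-drought replicate 2 or PHD6-drought replicate 3. With drought 9 rose and 2 fell in WT, while 4 rose and 11 fell in *MtPHD6* plants, and 11 had a lower drought response in *MtPHD6* plants by the interaction test. Over all genes these shares were 12.2% and 7.18%, 9.49% and 12.7%, and 5.6%. With the transgene 4.26% of all genes were higher and 0.722% lower in watered plants, and 2.65% higher and 3.89% lower under drought. The 2 that fell in WT are near their share, and were 1 without WT-drought replicate 1, 2 or 3 and 4 with upper-quartile scaling. The medians in the 4 comparisons were 0.09, -0.11, 0.16 and -0.29, against -0.02, 0.01, -0.01 and 0.02 over all genes. *LBD38*, a repressor of nitrogen-responsive genes, rose by 0.97 (adjusted p = 9.3e-05) with drought in WT, and its interaction was -1.23 (adjusted p = 6.0e-05). *CPK10*, a calcium-dependent kinase that phosphorylates NLP7, rose with drought by 0.93 in WT (adjusted p = 9.3e-05) and 0.68 in *MtPHD6* plants (adjusted p = 0.0469). The latter call was lost without PHD6-control replicate 1 or 2 or PHD6-drought replicate 2 or 3, and without PHD6-control replicate 2 or PHD6-drought replicate 2 or 3 only 2 signalling genes rose there.

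Of 16 tested nitrate transport genes, 1 was higher and 0 lower with the transgene in watered plants, and 1 higher and 3 lower with it under drought. Over all genes the transgene raised 4.26% and lowered 0.722% in watered plants, and raised 2.65% and lowered 3.89% under drought. The 1 higher in watered plants is near its share. Drought raised 8 and lowered 1 in WT, and raised 1 and lowered 6 in *MtPHD6* plants, and 3 (5 with DESeq2) had a lower drought response in *MtPHD6* plants, where 5.6% of all genes did. Among all genes drought raised 12.2% and lowered 7.18% in WT and raised 9.49% and lowered 12.7% in *MtPHD6* plants. The 1 lowered in WT and the 1 raised in *MtPHD6* plants are also near their shares. The 1 higher in watered plants was 2 without PHD6-control replicate 2 and 3 with DESeq2. The 1 higher under drought was 0 without WT-drought replicate 1, 2 or 3 or PHD6-drought replicate 2 or 3, and 0 in the fit of all 12 libraries. The 1 lowered in WT was 2 without WT-control replicate 2, with DESeq2, with upper-quartile scaling and under the replicate block. The 8 that rose in WT were 4 without WT-drought replicate 1 and 5 without WT-drought replicate 2 or 3 or WT-control replicate 3, and the 1 that rose in *MtPHD6* plants was 3 without PHD6-control replicate 3 and 2 without PHD6-drought replicate 3. The 0 lower in watered plants was 1 at an unadjusted p under 0.05 and 0 with DESeq2. *SLAH3*, a slow-type anion channel that passes nitrate, had 17.6, 12.8 and 13.1 CPM in WT-control, 124.1, 56.7 and 59.5 in WT-drought, 55.3, 55.3 and 96.1 in PHD6-control, and 15.2, 21.1 and 13.8 in PHD6-drought. As for *BT1*, WT-drought and PHD6-control lay above WT-control and PHD6-drought without overlap, and the interaction was -4.51 (adjusted p = 6.0e-05). *NRT3.1*, the partner protein of high-affinity transporters, rose with drought by 1.94 in WT (adjusted p = 5.3e-04) and 1.98 in *MtPHD6* plants (adjusted p = 0.00312), and *NRT1.2* rose by 1.18 in WT (adjusted p = 1.4e-04) against 0.23 in *MtPHD6* plants (adjusted p = 0.244). *NRT1.4*, a nitrate transporter of the petiole, fell by 0.70 (adjusted p = 0.00119) with drought in *MtPHD6* plants.

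**Figure D5:**
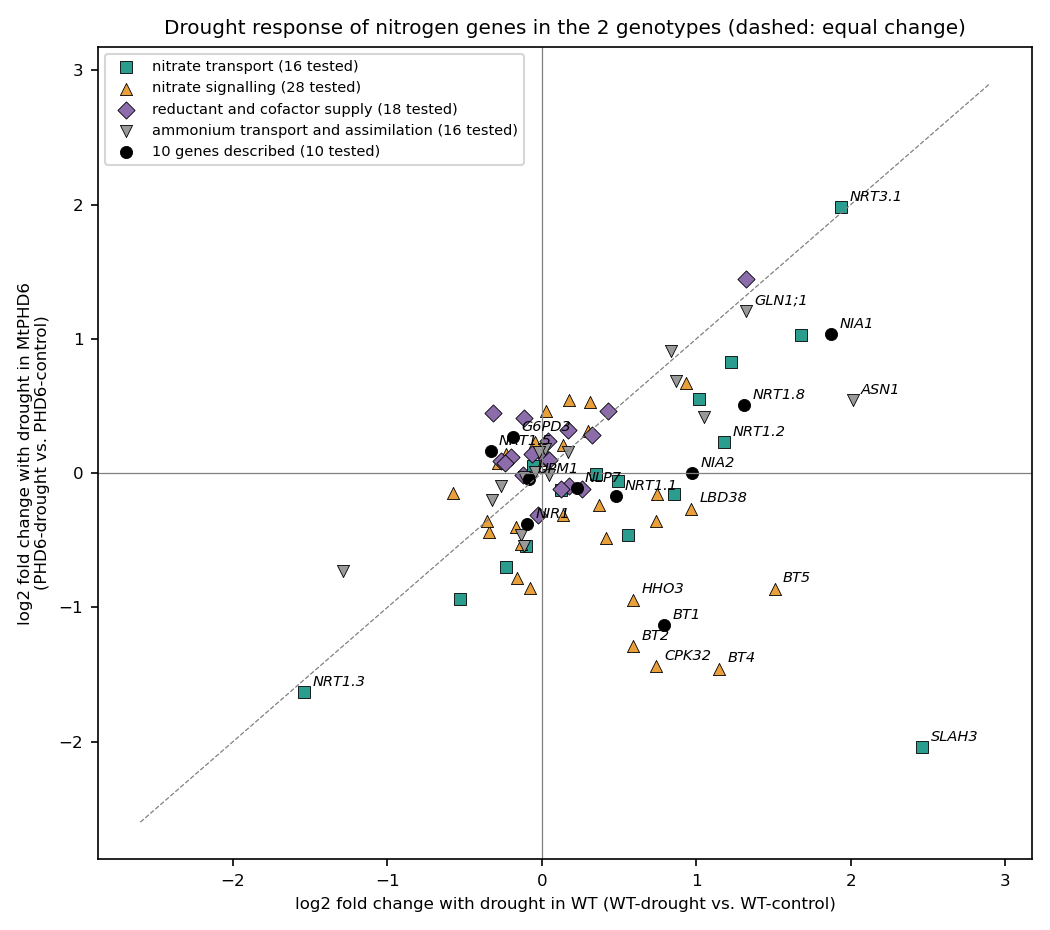
Log2 fold change with drought in WT (x axis) against that in *MtPHD6* plants (y axis) for the 10 genes and the other tested genes of 4 nitrogen lists, 1 point per gene, with equal change dashed. The 2 axes share no libraries. *NRT3.1* and *GLN1;1* lie near the dashed line, and *BT1*, *BT2*, *BT4*, *BT5* and *SLAH3* lie right of 0 and below 0.

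Of 16 tested genes of ammonium transport and assimilation, drought raised 5 and lowered 1 in WT, and raised 4 and lowered 3 in *MtPHD6* plants, against 12.2% and 7.18%, and 9.49% and 12.7%, of all genes. The 1 lowered in WT is near its share. The transgene raised 1 in watered plants and 2 under drought and lowered 0, where an unadjusted p under 0.05 gave 1 and 3 lower and DESeq2 0 and 3. Over all genes it raised 4.26% and lowered 0.722% in watered plants, and raised 2.65% and lowered 3.89% under drought. The 1 raised in watered plants is near its share. The 1 in watered plants was 0 without WT-control replicate 1 or 3 and under the replicate block, 2 without PHD6-control replicate 1 and 3 with DESeq2. The 2 under drought were 0 without WT-drought replicate 1, 2 or 3 or PHD6-drought replicate 2 and in the fit of all 12 libraries, and the 0 lowered there was 1 without PHD6-drought replicate 1. Without WT-control replicate 2 drought lowered 5 in WT, and without PHD6-control replicate 1 or 2 it raised 2 in *MtPHD6* plants. *GLN1;1*, a cytosolic glutamine synthetase, rose with drought by 1.32 in WT (adjusted p = 6.3e-05) and 1.21 in *MtPHD6* plants (adjusted p = 0.019). *AMT2*, an ammonium transporter, rose by 0.84 in WT (adjusted p = 1.2e-04) and 0.91 in *MtPHD6* plants (adjusted p = 0.0117). *ASN1*, an asparagine synthetase that darkness induces, rose by 2.02 (adjusted p = 1.9e-04) in WT, against 0.54 (adjusted p = 0.0915) in *MtPHD6* plants, with an interaction of -1.47 (adjusted p = 0.01). *GDH2*, a glutamate dehydrogenase, rose by 1.05 (adjusted p = 2.3e-04) and 0.42 (adjusted p = 0.0247) in the same order. In *MtPHD6* plants the calls on *GLN1;1* and *GDH2* were lost without PHD6-control replicate 1 or 2, on *GLN1;1* also without PHD6-drought replicate 3, and on *GDH2* also without PHD6-drought replicate 1 or 2.

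Of 18 genes of reductant and cofactor supply, edgeR called 0 with the transgene under either watering, and with drought 3 rose and 0 fell in WT, while in *MtPHD6* plants 4 were higher and 1 lower. These counts stand against 4.98% and 6.53% of all genes called with the transgene, and 12.2% higher and 7.18% lower with drought in WT and 9.49% and 12.7% in *MtPHD6* plants. The 0 that fell in WT was 2 with upper-quartile scaling. By unadjusted p under 0.05, 1 was higher and 1 lower with the transgene in watered plants, 3 higher and 2 lower with it under drought and 2 lower with drought in WT, and DESeq2 called 2 higher with the transgene under drought and 0 for the others. The 3 that rose in WT are near their share, and were 1 without WT-control replicate 3 or WT-drought replicate 2 or 3. The 4 that rose in *MtPHD6* plants were 1 without PHD6-control replicate 1 or 2 or PHD6-drought replicate 3, and 2 without PHD6-drought replicate 2. Without PHD6-drought replicate 1, 3 were higher with the transgene under drought. *HB1*, a haemoglobin that turns over nitric oxide, rose by 1.32 (adjusted p = 0.0101) in WT and 1.45 (adjusted p = 0.00539) in *MtPHD6* plants. *CNX2*, of molybdenum cofactor synthesis for nitrate reductase, rose by 0.43 (adjusted p = 0.0185) and 0.46 (adjusted p = 0.0266), with both calls lost without several libraries. *G6PD1* fell by 0.31 (adjusted p = 0.0191) and *RFNR1*, a ferredoxin reductase, rose by 0.41 (adjusted p = 0.0194) with drought in *MtPHD6* plants. Both calls were lost without PHD6-control replicate 1 or 2 or PHD6-drought replicate 3, and that on *G6PD1*, the 1 lower gene, also without PHD6-drought replicate 2.

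Levels per kb of exon set the 10 genes apart. Median CPM per kb over the 12 libraries was 244 for *NIA2*, 126 for *NIR1*, 39.7 for *UPM1*, 32.0 for *NRT1.1* and 30.8 for *NIA1*. It was 17.9 for *NLP7*, 17.6 for *BT1*, 5.79 for *G6PD3*, 2.96 for *NRT1.5* and 1.56 for *NRT1.8*. Across the 12 libraries, which share treatments and depth, log2 CPM of *NIA1* and *NIA2* had r = 0.862, *NRT1.1* and *NLP7* 0.844, *NIR1* and *UPM1* 0.789, and *G6PD3* and *BT1* -0.608, given as descriptions.

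Other lists moved with some of these results, and their part in them was not tested. The 7 dark-inducible genes summed to 195.6 to 259.3 CPM in WT-control, 1044 to 1295 in WT-drought, 588.1 to 990.6 in PHD6-control and 601.3 to 745.6 in PHD6-drought, so the sum was lowest in WT-control, as *NIA2* was. Most of it was *DIN10*, with mean CPM of 151.8, 1056, 688.3 and 585.5 in the same order. In PHD6-control vs. WT-control 1 of 7 genes was called higher, against 4.26% of all genes, and the list median was 0.06. Under drought the sum was lower in *MtPHD6* plants than in WT without overlap, while the *NIA2* groups overlapped. In PHD6-drought vs. WT-drought 1 of 7 was called lower, against 3.89% of all genes, with a list median of -0.39. By the interaction 1 of 7 was lower, against 5.6%. In this list *DIN10* and *DIN1* rose with drought in WT by 2.80 and 1.44 (adjusted p = 3.7e-05 and 0.00521), and *DIN10* with the transgene in watered plants by 2.18 (adjusted p = 0.00151). The 7 vascular markers summed to 327.8 to 333.1 CPM in PHD6-control and 243.9 to 306.4 in the other groups. In PHD6-control vs. WT-control 0 of 7 were called, where 4.98% of all genes were, and their median was 0.12. At an unadjusted p under 0.05, 1 was higher, and DESeq2 called 0. A change in vascular cell number cannot be told from a change in RNA per cell. The 11 clock genes summed to 607.1 to 667.6 CPM in WT-control and 614.3 to 668.6 in WT-drought. Their sums were 596.9 to 651.7 in PHD6-control and 546.0 to 599.4 in PHD6-drought, which lay below both WT groups. In any comparison edgeR called 0 higher and at most 2 lower, where 2.65% to 12.2% of all genes were higher and 0.722% to 12.7% lower. Lower were 1 with the transgene under drought, 1 with drought in WT, 2 with drought in *MtPHD6* plants and 1 by the interaction. Over all genes 3.89%, 7.18%, 12.7% and 5.6% were lower in this order. The 1 with the transgene under drought and the 1 with drought in WT were 0 without several libraries. With drought in each genotype 1 was higher at an unadjusted p under 0.05, and 0 with DESeq2. *ELF4* and *LUX* were the clock genes called, both lower with drought in *MtPHD6* plants (-0.36 and -0.40, adjusted p = 0.00889 and 0.0145).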

How the data were processed

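The authors deposited whole-number counts for 12 leaf RNA-seq libraries, without normalization, after aligning paired-end reads by HISAT2 (2.0.5) and counting them per gene by featureCounts (1.5.0-p3). The genome build and strand setting are not given in the sources used here. Entries without a gene name, 2021 of 38082, held 0.387 to 0.463% of counts and were left out. Models were fitted by edgeR (4.0.16, under R 4.3.3) after TMM, filterByExpr with a minimum count of 10 (19681 genes), estimateDisp, glmQLFit and glmQLFTest on the 6 libraries of a comparison, with Benjamini-Hochberg adjustment at 0.05, and the interaction on all 12. Standard errors belong to the model's log2 fold changes, and log2 CPM used a prior count of 2. The steps were tested on simulated data.

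The genes and lists were chosen with earlier results of these data known, and the 10 genes, up to 4 called genes of each list with the smallest p, and the 3 genes most correlated with each member are named. Replicate numbers were fitted as a block as an alternative. In WT-drought vs. WT-control, libraries that share a number had correlated deviations from their group means (r = 0.348, 0.148 and 0.142), and in no other comparison did every pair exceed 0.1. Nothing in the labels says what a number marks. Other alternatives were DESeq2 1.42.0, DESeq2's size factors, upper-quartile scaling, no filter, a floor of 1 CPM in every library, 1 fit over all 12, the study's thresholds and each library left out. Sequences and positions are of TAIR10.1.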

Additional observations from a re-analysis of the deposited data

Results flagged for a closer look

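The drought response of 2 members differed between the genotypes by the interaction test over 12 libraries with edgeR. For *NIA2* the drought log2 fold change in *MtPHD6* plants minus that in WT was -0.976 (SE 0.23, adjusted p = 0.0183, range over alternatives 6.2e-04 to 0.0545). All 3 WT-drought libraries were above all 3 of WT-control, and the *MtPHD6* groups overlapped. For *BT1* it was -1.927 (SE 0.24, adjusted p = 2.8e-04, range 8.8e-12 to 0.00118). Drought libraries were all above watered ones in WT and all below them in *MtPHD6* plants.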

How the results depend on the processing

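No call on a member was reversed under any alternative. Over the 50 member results, 334 of the values with a library left out and 368 of the other alternatives kept the call or its absence, 17 and 9 lost a call and 9 and 8 gained one. Signs changed only for differences of members that were not called.

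With the study's thresholds, members called higher numbered 0 in PHD6-control vs. WT-control, 0 in PHD6-drought vs. WT-drought and 1 in WT-drought vs. WT-control, and members called lower 1 in PHD6-drought vs. PHD6-control and 1 in the interaction. All genes called then numbered 337 against 1286 for the transgene under drought, 1228 against 3819 for drought in WT, 1102 against 4363 for drought in *MtPHD6* plants and 912 against 1373 for the interaction. In PHD6-control vs. WT-control DESeq2 called 1483 genes and the fit of all 12 libraries 1598, against 981. The fit of all 12 libraries left 1 member lower in PHD6-drought vs. PHD6-control, *NIR1* having an adjusted p of 0.0709. With the replicate block 5 members were higher in WT-drought vs. WT-control, against 3, *NRT1.1* and *NRT1.8* being added. In the interaction the block gave *NIA1* an adjusted p of 0.0162, and it changed no other member's call. The study's rule adds a fold threshold but uses an unadjusted p, so a smaller count is not fixed in advance. The cause of these shifts was not tested.

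With each library left out, members higher numbered 1 to 2 in PHD6-control vs. WT-control, 0 to 1 in PHD6-drought vs. WT-drought, 2 to 5 in WT-drought vs. WT-control, 1 to 1 in PHD6-drought vs. PHD6-control and 0 to 1 in the interaction. Members lower numbered 1 to 3 in PHD6-drought vs. WT-drought, 1 to 2 in PHD6-drought vs. PHD6-control and 1 to 3 in the interaction. All genes called numbered 507 to 835, 249 to 2775, 2253 to 4988, 2015 to 4878 and 988 to 1372 in the order above. Ratios of members, added after seeing the data, were also recomputed without each library: the log2 ratio of nitrate reductases to *NIR1* in PHD6-control vs. WT-control was 0.60 without PHD6-control replicate 3, against 0.76. Depth limited *NRT1.8* most, with 10 counts in its lowest library and 95% intervals wider than those of the other members.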

Other observations

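Among all tested genes, those whose log2 CPM followed a member most closely over the 12 libraries were named as descriptions only, since the libraries share treatments. For *NIA1* they were AT3G47800 (r = 0.984), *PMT6* and AT3G46930 (both 0.981), and for *NIA2* AT2G39360 (0.976), AT2G21120 (0.972) and AT4G00300 (0.970). *NIR1* was followed by *LIP1* (0.989), AT1G71500 (0.983) and *AKR2* (0.981). *BT1* was followed by *EXGT-A3* (0.988), AT4G19530 (0.987) and AT2G36410 (0.982). For *NRT1.1* the highest was *CESA1* (0.943), for *NLP7* AT4G32760 (0.949), for *UPM1* *HPR3* (0.944), for *G6PD3* *CPL3* (0.895), for *NRT1.5* AT5G59650 (0.890) and for *NRT1.8* *SDH1-2* (0.886).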
